A study of Macaca mulatta with 20 samples.

Results

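A set of 9 genes of the secondary and tertiary granules of neutrophils was followed in the blood of irradiated rhesus macaques. They are LTF, LCN2, CAMP, MMP8, MMP9, CEACAM8, OLFM4, PGLYRP1 and CHI3L1, and each was found on the array by its gene name, among 25992 gene names in all. Each gene is represented by 1 of the 34127 probes, and 8 of the 9 genes were measured well enough to be tested. The samples are globin-depleted whole blood RNA of male Macaca mulatta of Chinese origin, hybridized to 20 one-color Agilent human whole genome arrays. Blood was taken before irradiation and 2, 5 and 30 days after a single dose of 10 Gy of X-rays to the whole thorax, with 5 arrays in each of these 4 groups. No group received a sham dose, so that the animal before irradiation is the control for each day. The methods state that the animals belonged to the arm without a mitigator, that supportive care did not include antibiotics or steroids, and they give ages for the cohort and not for each array. They also state that comparisons were paired by animal, with RNA pooled from a pair of animals in one case, and which array this is cannot be read from the labels. The question put to these data was how the granule genes differed from the level before irradiation on each day, and whether they moved together.

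Neutrophils pack their granule proteins in the order in which they mature in the bone marrow. Primary (azurophil) granules fill first, at the promyelocyte stage, with enzymes such as myeloperoxidase. Secondary (specific) granules fill next, at the myelocyte and metamyelocyte stages, with lactoferrin (LTF), lipocalin-2 (LCN2), cathelicidin (CAMP), collagenase (MMP8), olfactomedin-4 (OLFM4), peptidoglycan recognition protein (PGLYRP1), chitinase-3-like protein (CHI3L1) and the surface protein CD66b (CEACAM8). Tertiary granules are filled last and are marked by gelatinase (MMP9). The transcripts of the secondary granules are most abundant in these precursors and fall as the cells mature, while MMP9 is made late. In these data LTF, CAMP and PGLYRP1 were already well above background on every array before irradiation.

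The probes are human sequences of 60 bases that were read here with macaque RNA, so that the level of one probe cannot be set against that of another. Positions are those of the array annotation on the human build hg19. The probes of 4 antimicrobial proteins of the secondary granules are printed in lower case and 5′ to 3′ in the direction of the transcript. The capitals in the CAMP probe mark the stop codon of cathelicidin, and the bases before it encode the carboxy-terminal end of the antimicrobial peptide LL-37.
CAMP: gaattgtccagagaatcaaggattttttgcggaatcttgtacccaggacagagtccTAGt
LCN2: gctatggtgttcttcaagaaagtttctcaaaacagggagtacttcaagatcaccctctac
PGLYRP1: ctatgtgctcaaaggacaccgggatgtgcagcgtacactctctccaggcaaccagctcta
LTF: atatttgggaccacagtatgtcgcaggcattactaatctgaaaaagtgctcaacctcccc
The CAMP probe lies at chr3:48266856-48266915 and the LCN2 probe at chr9:130914244-130914303, both on the plus strand. The PGLYRP1 probe lies at chr19:46522536-46522595 on the minus strand. The LTF probe lies at chr3:46477720-46479489 on the minus strand, and its 60 bases span 1770 bases of the genome, so that it bridges an intron. The LCN2 and PGLYRP1 probes hold no stop codon in any of the 3 reading frames. The MMP9 probe (chr20:44645121-44645180), which is spotted 10 times on each array, gave an SD between the 10 spots of 0.03 to 0.07 on the log2 scale.

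All levels are the log2 processed signal minus the 75th percentile of the array, so that a level of 0 is the 75th percentile and a difference of 1 is a doubling. LTF, CAMP, MMP9 and PGLYRP1 were well above background on all 20 arrays, CEACAM8 on 19, CHI3L1 on 18, LCN2 on 15 and OLFM4 on 12. MMP8 was well above background on 1 array only and was not tested. No spot of any member was saturated. Arrays of the same replicate number were taken as a pair, and a probe was called when its p-value was under 0.005 with an FDR under 10%. Each of the 5 slides held 1 array of each group, always in the same position, so that position on the slide and group cannot be told apart. The share of spots well above background ranged from 50.9% to 67.3%. Of the markers of mature neutrophils, 15 were tested, with CSF3R, CXCR2, MNDA and S100A8 well above background on all 20 arrays, as was the monocyte marker CD14. Whole blood is a mixture, and fewer cells of a type and less RNA per cell cannot be told apart in it.

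On all 3 days the 8 tested genes had a mean level above that before irradiation, and no gene passed the call rule on any day. The median log2 change of the 8 genes was 0.74 on day 2, 0.84 on day 5 and 1.22 on day 30, while the median over all 19961 tested probes was -0.04, 0.03 and -0.02. The median of the genes on day 2 was 0.29 without replicate 3 and 1.13 without replicate 2, and that on day 30 was 0.77 without replicate 1, compared with 0.82 on day 5 without it. On day 2, 3 of the 8 genes (LCN2, CAMP and CEACAM8) had an unadjusted p-value under 0.05 and were higher, compared with 8.47% of all probes. On day 5 this held for 5 of the 8 (LTF, LCN2, CAMP, CEACAM8 and CHI3L1), compared with 7.35% of all probes. On day 30 it held for 5 of the 8 (LCN2, CAMP, CEACAM8, OLFM4 and PGLYRP1), compared with 7.43%. The 8 genes share cells and arrays, so that these counts are not 8 independent observations. By the call rule, 0.0601% of all probes were called on day 2 (12 probes), and 0% on day 5 and on day 30, where the smallest adjusted p over all probes was 0.279 and 0.111. These totals depended on the setting, with 0 to 343 probes called on day 2 and 0 to 899 on day 30 under other settings with all 5 pairs, and 588 on day 2 without replicate 2. The absence of calls among the members therefore lies within what the whole array gave, and with 5 pairs it does not show that the genes stayed level.

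Consistency between pairs differed by day. No gene was higher in all 5 pairs on day 2, where 6.17% of all probes were. On day 5, 4 of the 8 genes (LCN2, CAMP, CEACAM8 and CHI3L1) were higher in all 5 pairs, compared with 7.24% of all probes. On day 30 it was 2 of the 8 (CAMP and CEACAM8), compared with 7.41%. The levels of the pre-irradiation arrays overlapped with those of each day for every gene. How many of all probes overlapped in this way was not counted, so that this overlap is not a trait of these genes.

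**Figure D1:**
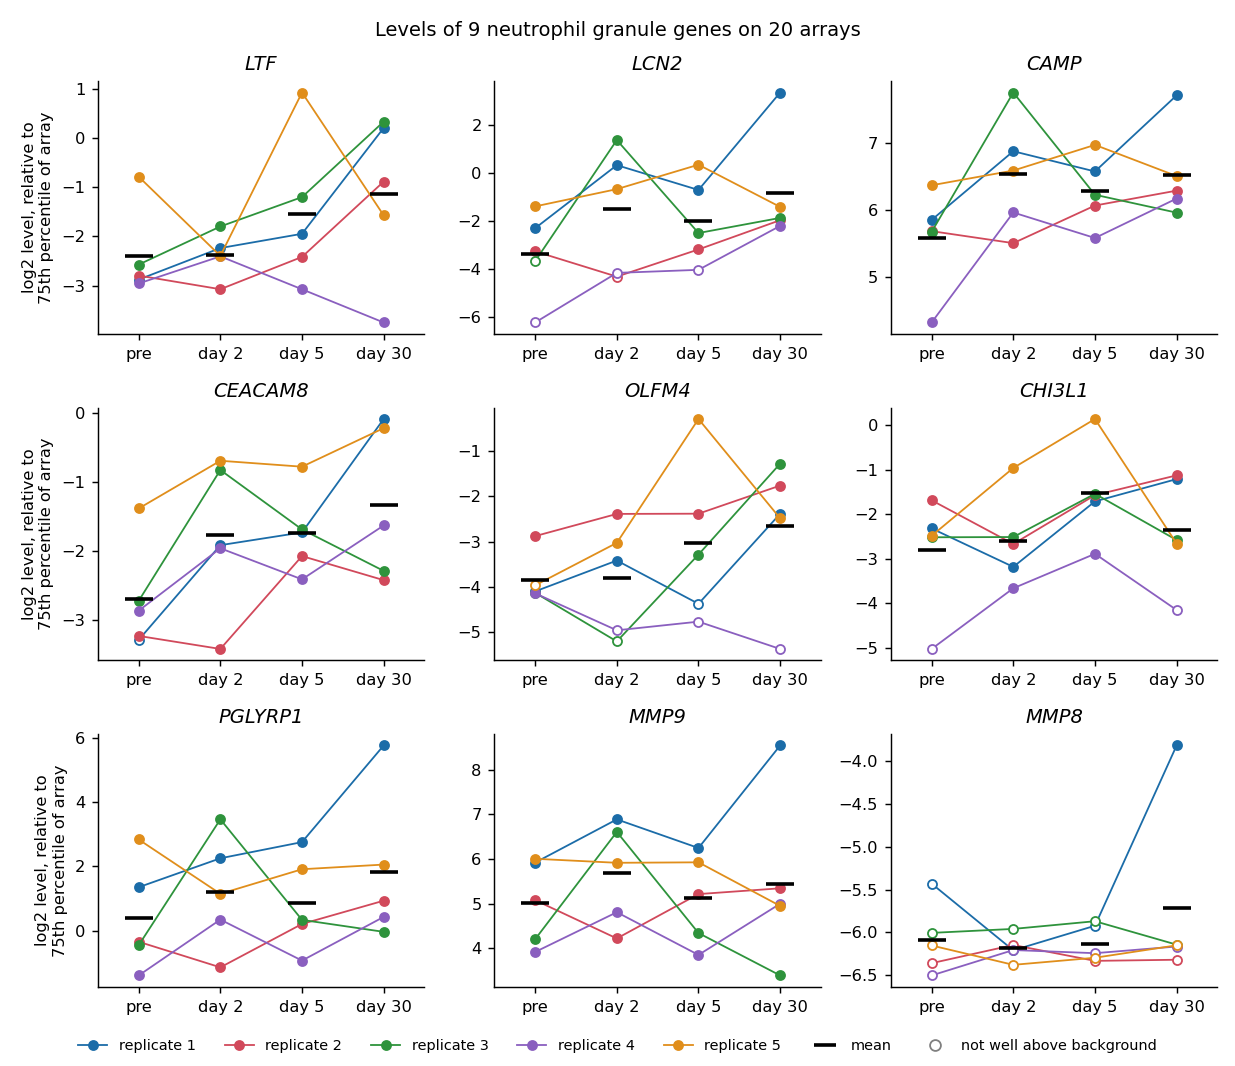
Level of the 9 granule genes on each of the 20 arrays, as log2 processed signal relative to the 75th percentile of the array, by group. Lines join arrays of one replicate number, black bars are means of 5 arrays and open circles are spots not well above background; day 30 of replicate 1 is the highest of all arrays for LCN2, PGLYRP1 and MMP9.

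CAMP encodes cathelicidin, the precursor of the antimicrobial peptide LL-37. Before irradiation its level was 5.85, 5.68, 5.67, 4.31 and 6.37 in replicates 1 to 5. On day 2 it was 6.88, 5.50, 7.76, 5.96 and 6.59, on day 5 it was 6.58, 6.06, 6.23, 5.58 and 6.98, and on day 30 it was 7.72, 6.29, 5.96, 6.17 and 6.51. All pairs were higher on days 5 and 30, and only replicate 2 was lower on day 2. Its log2 change by limma, the test used throughout, was 0.96 ± 0.33 (SE) on day 2 (adjusted p = 0.258), 0.71 ± 0.17 on day 5 (adjusted p = 0.289) and 0.95 ± 0.30 on day 30 (adjusted p = 0.186). This corresponds to a 1.95-fold, a 1.63-fold and a 1.94-fold higher level.

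LCN2 encodes lipocalin-2, which binds bacterial siderophores and so withholds iron. With all 5 pairs and the settings used throughout, it had the highest mean change of the 8 genes on each day. On day 5 CHI3L1 was close to it, at 1.29. Over the other settings tried, LCN2 ran from 0.58 to 1.68 on day 5 and CHI3L1 from 0.61 to 1.59. Their order on day 5 therefore depended on the setting. Before irradiation the level of LCN2 was -2.30, -3.27, -3.68, -6.24 and -1.39. On day 2 it was 0.33, -4.33, 1.38, -4.17 and -0.67, on day 5 it was -0.71, -3.19, -2.51, -4.04 and 0.35, and on day 30 it was 3.36, -1.97, -1.87, -2.21 and -1.42. The signal was not well above background in replicates 3 and 4 before irradiation, in replicates 2 and 4 on day 2 and in replicate 4 on day 5, so that the changes of these pairs rest on dim spots. The log2 change was 1.89 ± 0.74 on day 2 (adjusted p = 0.300), 1.36 ± 0.29 on day 5 (adjusted p = 0.279) and 2.56 ± 0.72 on day 30 (adjusted p = 0.164). The pair of replicate 3 differed most on day 2 (5.06) and the pair of replicate 1 on day 30 (5.67). Without replicate 3 the change on day 2 was 1.09, and without replicate 1 the change on day 30 was 1.78.

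LTF encodes lactoferrin, the iron-binding protein that serves as the standard marker of secondary granules. Its level before irradiation was -2.88, -2.80, -2.57 and -2.96 in replicates 1 to 4 and -0.79 in replicate 5. On day 2 it was -2.24, -3.07, -1.80, -2.41 and -2.40, on day 5 it was -1.95, -2.42, -1.20, -3.08 and 0.92, and on day 30 it was 0.20, -0.89, 0.33, -3.75 and -1.57. The mean on day 2 was that of the pre-irradiation arrays, with a log2 change of 0.02 ± 0.35 (adjusted p = 0.988), whose sign turned without replicate 1, 3 or 4. On day 5 the change was 0.85 ± 0.27 (adjusted p = 0.346), with 4 of 5 pairs higher. On day 30 the replicates parted: replicates 1, 2 and 3 were higher by 3.08, 1.91 and 2.90, and replicates 4 and 5 were lower, with changes of -0.79 and -0.78. The mean change was 1.26 ± 0.61 (adjusted p = 0.328), and 0.81 without replicate 1.

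PGLYRP1 encodes a protein that binds bacterial cell wall peptidoglycan. Its level was 1.35, -0.34, -0.45, -1.39 and 2.84 before irradiation, 2.25, -1.14, 3.47, 0.35 and 1.15 on day 2, 2.76, 0.21, 0.34, -0.93 and 1.91 on day 5, and 5.77, 0.93, -0.04, 0.43 and 2.06 on day 30. The arrays before irradiation differed by 4.23 on the log2 scale, which is more than any mean change. The log2 change was 0.81 ± 0.72 on day 2 (adjusted p = 0.607), 0.46 ± 0.31 on day 5 (adjusted p = 0.601) and 1.43 ± 0.62 on day 30 (adjusted p = 0.279). Replicate 1 carried much of the difference on day 30, with a change of 4.41, and without it the change was 0.68. Likewise the change on day 2 was 0.04 without replicate 3. On day 5 it was 0.22 without replicate 1 and 0.80 without replicate 5.

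CEACAM8, the surface protein CD66b that is stored in the membrane of secondary granules, was higher after irradiation in 14 of 15 pairs. These pairs use each array before irradiation again on every day and are not independent. Among the members only CEACAM8 is absent from the rhesus gene table used here. Whether its probe reads related genes was not tested. Its level was -3.29, -3.23, -2.72, -2.87 and -1.38 before irradiation, -1.91, -3.42, -0.82, -1.96 and -0.69 on day 2, -1.73, -2.07, -1.69, -2.41 and -0.78 on day 5, and -0.08, -2.42, -2.29, -1.63 and -0.22 on day 30. The pair that was lower was that of replicate 2 on day 2, with a change of -0.19. CEACAM8 differed from pre-irradiation by a log2 of 0.94 ± 0.28 on day 2 (adjusted p = 0.229), 0.96 ± 0.19 on day 5 (adjusted p = 0.279) and 1.37 ± 0.37 on day 30 (adjusted p = 0.160). When replicate 2 was left out, CEACAM8 was called on day 2 (1.22 ± 0.24, adjusted p = 0.0837), as were 588 of all 19961 probes. In replicate 1 the signal before irradiation was not well above background, so that the changes of this replicate rest on a dim spot. Without replicate 1 the change of CEACAM8 on day 30 was 0.91.

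OLFM4 encodes a glycoprotein that is present in the secondary granules of only some neutrophils. Its level was -4.10, -2.88, -4.13, -4.15 and -3.97 before irradiation, -3.42, -2.39, -5.21, -4.96 and -3.03 on day 2, -4.38, -2.39, -3.29, -4.77 and -0.29 on day 5, and -2.39, -1.76, -1.28, -5.37 and -2.49 on day 30. Before irradiation 2 of the 5 arrays were well above background, compared with 3 on day 2, 3 on day 5 and 4 on day 30. The single high value on day 5 was that of replicate 5, the array on which LTF and CHI3L1 were also at their highest of all 20 arrays. OLFM4 differed from pre-irradiation by 0.04 ± 0.32 on day 2 (adjusted p = 0.961), 0.82 ± 0.56 on day 5 (adjusted p = 0.608) and 1.19 ± 0.49 on day 30 (adjusted p = 0.259). Without replicate 5 the change on day 5 was 0.11. On day 30, 4 of the 5 pairs were higher, and replicate 4 was lower and at background.

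CHI3L1 encodes a chitinase-like protein without enzyme activity, which is stored in secondary granules and is also made by macrophages. Its level was -2.32, -1.69, -2.52, -5.03 and -2.49 before irradiation, -3.18, -2.67, -2.51, -3.67 and -0.96 on day 2, -1.71, -1.57, -1.54, -2.89 and 0.14 on day 5, and -1.21, -1.13, -2.58, -4.15 and -2.66 on day 30. It was the one gene of the 8 whose highest mean was on day 5. Its mean log2 change was 0.21 ± 0.40 on day 2 (adjusted p = 0.830), 1.29 ± 0.36 on day 5 (adjusted p = 0.330) and 0.46 ± 0.23 on day 30 (adjusted p = 0.341). In replicate 4 it was not well above background before irradiation and on day 30, so that the changes of this replicate rest on dim spots. Over the other settings tried, the change on day 5 ran from 0.61 to 1.59.

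MMP9, the gelatinase of tertiary granules, had the smallest change on day 5. Its level was 5.92, 5.08, 4.21, 3.92 and 6.01 before irradiation, 6.89, 4.22, 6.61, 4.81 and 5.92 on day 2, 6.25, 5.22, 4.34, 3.86 and 5.93 on day 5, and 8.54, 5.35, 3.40, 5.00 and 4.95 on day 30. On day 5 each replicate was close to its own level before irradiation, with changes within a pair of -0.08 to 0.33. On day 30 the changes ran from -1.05 to 2.62. Mean log2 changes of MMP9 were 0.66 ± 0.41 on day 2 (adjusted p = 0.479), 0.09 ± 0.14 on day 5 (adjusted p = 0.832) and 0.42 ± 0.49 on day 30 (adjusted p = 0.686). Without replicate 3, whose pair differed by 2.40, the change on day 2 was 0.23. Its sign on day 5 turned with quantile normalization and with median scaling, and on day 30 without replicate 1.

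MMP8, the collagenase of neutrophils, was not well above background on any array before irradiation or on days 2 and 5. Its level there was between -6.50 and -5.43. On day 30 it was well above background in replicate 1 (-3.82) and not in the other replicates (-6.32 to -6.14). That array is also the one with the highest LCN2, PGLYRP1, MMP9 and CEACAM8 of the 20 arrays. No fold change is given for MMP8, since the mean of day 30 lies below the lowest signal that counts as well above background.

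**Figure D2:**
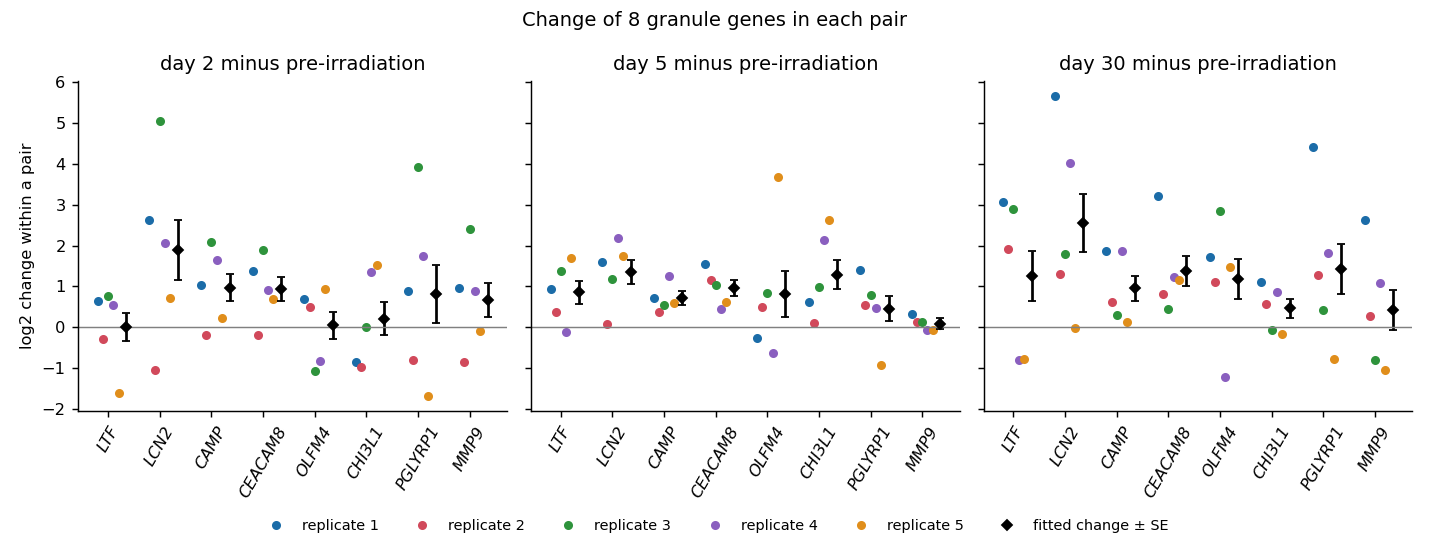
Log2 change of the 8 tested granule genes in each pair, on day 2, day 5 and day 30, with the fitted mean change and its SE as black diamonds. On day 5 the pairs lie closest together for MMP9 (-0.08 to 0.33) and CAMP (0.38 to 1.27), while LCN2 on day 30 runs from -0.02 to 5.67.

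Taken by pair, the genes rarely moved alone. On day 2 the pair of replicate 2 had 7 of the 8 genes lower, with a median change of -0.54, while replicates 1, 3 and 4 each had 7 of 8 higher, with medians of 0.93, 2.00 and 1.14. On day 5 all 5 pairs had a median above 0, between 0.38 and 1.16, and replicates 2 and 3 had all 8 genes higher. On day 30 the medians were 2.85, 0.96, 0.43, 1.16 and -0.10 in replicates 1 to 5. Replicate 1 thus stood highest on day 30. All 8 genes were higher in replicates 1 and 2, while replicate 5 had 3 genes higher and 5 lower. The SD between the medians of the 5 pairs was 0.93 on day 2, 0.32 on day 5 and 1.11 on day 30.

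Between the days after irradiation, 0 of the 8 genes was called. The call rule marked 0% of all probes between days 5 and 2, 0.0501% between days 30 and 2, and 0% between days 30 and 5. CHI3L1 was higher on day 5 than on day 2 in all 5 pairs, by 1.47, 1.10, 0.97, 0.77 and 1.10, which gave a log2 change of 1.08 ± 0.17 and the second smallest p-value of all probes in that comparison (adjusted p = 0.972). It was the 1 gene of 8 with an unadjusted p-value under 0.05 there, compared with 3.56% of all probes. The change of CHI3L1 was 0.17 with normexp background correction. No gene reached that threshold between days 30 and 2, where 12.8% of all probes did, or between days 30 and 5, where 8.48% did. LTF came closest between days 30 and 2 (log2 change of 1.25 ± 0.54, adjusted p = 0.396), and was higher on day 30 in 4 of 5 pairs. PGLYRP1 came closest between days 30 and 5 (0.97 ± 0.44, adjusted p = 0.593), with 4 of 5 pairs higher. The later comparisons share arrays with those against pre-irradiation and are not independent of them.

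Across the 20 arrays the 8 genes were not equally alike. Pearson's r was above 0 in all 28 gene pairs, with a median of 0.55, and it is given as a description, since the arrays share animals and groups. LCN2 and CAMP were the most alike (r = 0.95), followed by LCN2 and PGLYRP1 (0.92), MMP9 and PGLYRP1 (0.91) and CAMP and PGLYRP1 (0.88). MMP9 thus varied with LCN2 (0.85) and CAMP (0.80), although it belongs to the later granule type. OLFM4 varied with LTF (0.68) and CHI3L1 (0.64), but r was 0.02 with MMP9, 0.06 with PGLYRP1, 0.13 with CEACAM8 and 0.14 with CAMP. LTF stood between, with r of 0.59 with LCN2 and 0.31 with MMP9. With each array taken relative to the mean of its group, r was 0.96 for LCN2 and CAMP, 0.62 for LTF and OLFM4 and 0.03 for MMP9 and OLFM4. OLFM4 was at background on 8 arrays, where its order is not measured.

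**Figure D3:**
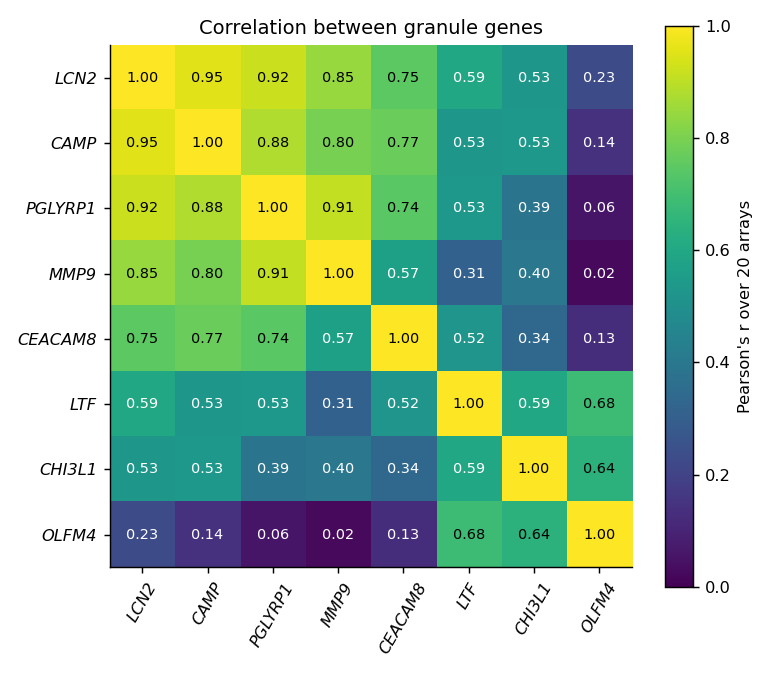
Pearson's r between the levels of 8 granule genes over 20 arrays, from 0 (dark) to 1 (yellow). LCN2, CAMP, PGLYRP1, MMP9 and CEACAM8 form a block with r between 0.57 and 0.95, and OLFM4 has r of 0.02 to 0.23 with these 5 genes but 0.68 with LTF and 0.64 with CHI3L1.

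The probes most like the 4 genes that were well above background on all arrays (LTF, CAMP, MMP9 and PGLYRP1) were sought by the Pearson correlation with the mean of the 4 over 20 arrays, among 19933 probes. The nearest 10 probes stood for 9 genes, with r between 0.92 and 0.94, while the 95th percentile of all probes was 0.72. They were ATP11A (0.94), both probes of QPCT (0.94 and 0.93), GCA (0.94), ZNF106 (0.93), TMEM120A (0.93), IGF2R (0.92), SLC16A6 (0.92), SIRPA (0.92) and REPS2 (0.92). QPCT encodes glutaminyl cyclase, an enzyme of secondary and tertiary granules. GCA encodes grancalcin, a calcium-binding protein of neutrophils, and its log2 change was 0.82, 0.89 and 1.60 on days 2, 5 and 30.

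Other genes of the contents and membranes of these granules had lower medians than the 8 genes. Of 26 such genes 20 were tested, and none was called. On day 2, 6 were higher at an unadjusted p-value under 0.05, on day 5 it was 7 and on day 30 it was 12, and none was lower, with medians of 0.54, 0.49 and 0.71. Of all probes 8.47%, 7.35% and 7.43% were higher at this threshold on days 2, 5 and 30, which is also the background for the counts of the lists that follow. SLC11A1, an ion transporter of the granule membrane that moves iron and manganese, was 1.03 ± 0.19 higher on day 5 (adjusted p = 0.279) in all 5 pairs. CEACAM6, a relative of CEACAM8, was 1.42 ± 0.29 higher on day 5 (adjusted p = 0.279). RETN, which encodes resistin, was 0.87 ± 0.20 higher on day 30 (adjusted p = 0.138), and TNFAIP6, a hyaluronan-binding protein, was 1.32 ± 0.30 higher on day 2 (adjusted p = 0.166) in 4 of 5 pairs. CRISP3, ARG1 and ABCA13 were not well above background on any array.

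The primary granule genes, which are made one stage earlier, had medians of 0.63, 0.77 and 0.54 on days 2, 5 and 30 over 9 tested genes. At an unadjusted p-value under 0.05, 3 were higher on day 2, 5 on day 5 and 2 on day 30, none was lower and none was called. On day 5 RNASE3, the eosinophil cationic protein, was 1.40 ± 0.20 higher (adjusted p = 0.279), the protease CTSG 0.77 ± 0.16 (adjusted p = 0.279) and the defensin DEFA3 0.94 ± 0.21 (adjusted p = 0.285), each in all 5 pairs. DEFA3 is nearly identical to its neighboring copies, so that its probe may read more than one of them. BPI, which kills Gram-negative bacteria, was higher by 1.35 ± 0.51, 1.19 ± 0.42 and 1.88 ± 0.56 on the 3 days, in 4 of 5 pairs on each. RNASE3, which was well above background on 12 arrays, is shared with eosinophils. On day 5 the eosinophil genes CLC and RNASE2 were also higher in all 5 pairs, by 0.96 ± 0.26 and 1.11 ± 0.25. EPX, CCR3 and IL5RA were at -0.41 ± 0.44, -0.17 ± 0.33 and -0.52 ± 0.56. EPX was well above background on 10 arrays, and RNASE2 and IL5RA on 7 each, so that the values of these genes rest on dim spots in large part. The 10 tested markers of eosinophils and basophils together had medians of 0.08, -0.17 and -0.34 on the 3 days. The part of eosinophils in the values of RNASE3 was not tested. ELANE was well above background on 2 arrays and DEFA4 on none.

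The 15 tested markers of mature neutrophils were themselves higher, with medians of 1.01, 0.71 and 0.94 on days 2, 5 and 30, and all 15 had a mean above pre-irradiation on each day. At an unadjusted p-value under 0.05, 11 were higher on day 2, 11 on day 5 and 9 on day 30, and none was called. CSF3R, the receptor of granulocyte colony-stimulating factor, was 0.997 ± 0.196 higher on day 2 (adjusted p = 0.148). TNFRSF10C, a decoy receptor, was 1.24 ± 0.29 higher on day 2 (adjusted p = 0.184). MNDA, a nuclear protein of myeloid cells, was 1.14 ± 0.25 higher on day 30 (adjusted p = 0.129), and so was the chemokine receptor CXCR2 by 1.11 ± 0.26 (adjusted p = 0.141). The mean of these markers, each centered over the 20 arrays, ran from -2.01 to 0.24 before irradiation, from -0.71 to 1.40 on day 2, from -0.73 to 0.79 on day 5 and from -0.60 to 1.84 on day 30. Its correlation with the mean of the 8 granule genes over the 20 arrays was r = 0.91. This was not particular to these markers, since r was 0.95 for the other genes of these granules. The remaining granulocyte, partner, transcription factor and monocyte lists had r of 0.74 (precursors and dividing cells) to 0.86 (secretory vesicles). Lists of eosinophils and basophils, platelets, erythroid cells, T and NK cells and B cells had r of -0.75 to -0.04. The part of the mature neutrophil markers in the changes of the granule genes was not tested.

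**Figure D4:**
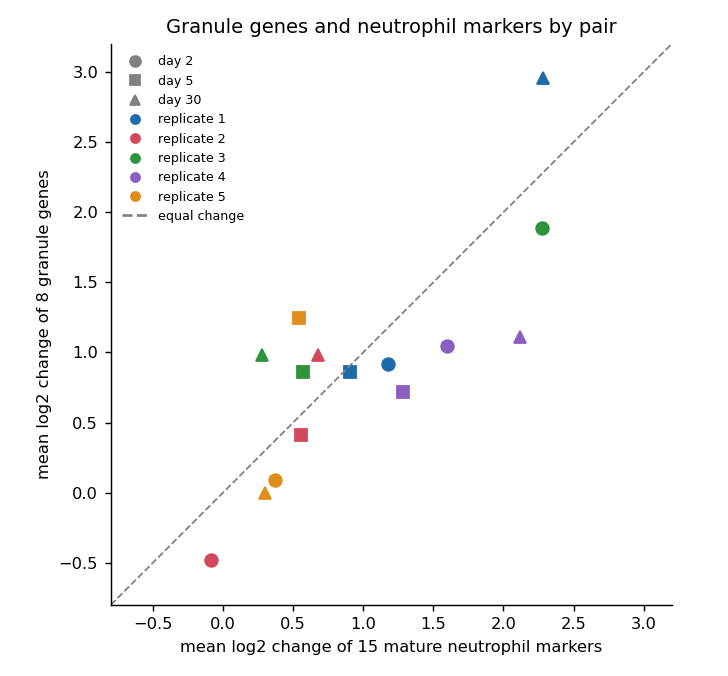
Mean log2 change of the 8 granule genes (vertical) against that of 15 mature neutrophil markers (horizontal) in each of the 15 pairs, with the line of equal change. With all 8 genes in the mean, those at background on some arrays included, all 5 day 2 pairs lie below the line. The pairs of days 5 and 30 lie on both sides of it.

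Set against these markers within each pair, the granule genes differed between the days. On day 2 their mean change was lower than that of the markers in all 5 pairs, with differences of -0.26, -0.39, -0.39, -0.55 and -0.29 and a mean difference of -0.38 ± 0.12 (SD). On day 5 the mean difference was 0.05 ± 0.48, with 2 of 5 pairs above 0, and on day 30 it was 0.07 ± 0.73, with 3 of 5 pairs above 0. The pair of replicate 4 on day 30 was lowest (-1.01), where the markers were higher by 2.12 and the granule genes by 1.11. The pairs of replicates 1 and 3 on day 30 were 0.68 and 0.70 above. The granule genes include some at background on part of the arrays. Over only the 4 well above background on all 20 arrays, the centered mean of replicate 3 went from -0.98 before irradiation to 1.32 on day 2. That of the markers went from -0.88 to 1.40, so that this pair was not lower. In replicate 5 the 4 genes went from 0.92 to 0.12 and the markers from 0.24 to 0.62. All these are comparisons between lists of different probes, and no test was made of them.

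All 14 transcription factors of granulocyte maturation on the list were tested, and none was called. CEBPA, which starts the granulocyte program, was higher in all 5 pairs on each day, by 0.78 ± 0.18, 0.60 ± 0.17 and 0.95 ± 0.33, with an adjusted p of 0.170, 0.327 and 0.209. CEBPE, the factor that drives the genes of secondary granules, was higher by 0.49 ± 0.27, 0.34 ± 0.25 and 1.16 ± 0.49, and only day 30 had a p-value under 0.05 (adjusted p = 0.273, 4 of 5 pairs). CEBPB, known for granulocyte production on demand, was higher in all 5 pairs on day 2 by 0.80 ± 0.18 (adjusted p = 0.166) and on day 30 by 0.65 ± 0.18 (adjusted p = 0.163). The retinoic acid receptor RARA was higher in all 5 pairs on day 2 by 1.05 ± 0.24 (adjusted p = 0.166) and on day 5 by 0.42 ± 0.14 (adjusted p = 0.369). SPI1, the myeloid factor PU.1, was higher by 0.53 ± 0.15 on day 2 (adjusted p = 0.208).

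GFI1, a repressor needed for neutrophil differentiation, went the other way and was lower in all 5 pairs on day 2, with a log2 change of -1.17 ± 0.24 (adjusted p = 0.151), and on day 5, with -0.78 ± 0.23 (adjusted p = 0.332). On day 30 it was at -0.12 ± 0.18. It was thus higher on day 30 than on day 2 in all 5 pairs, by 1.05 ± 0.16 (adjusted p = 0.153). GFI1 is also expressed in lymphocytes, and the 10 tested markers of T and NK cells had medians of -0.70, -0.49 and -0.29 on the 3 days. The part of lymphocytes in the GFI1 values was not tested. ETV6 was higher on day 2 by 0.55 ± 0.20 and on day 30 by 0.58 ± 0.19. CUX1, a repressor of LTF and other secondary granule genes, was 0.55 ± 0.31, 0.08 ± 0.15 and 0.81 ± 0.28 above pre-irradiation. CEBPD, CEBPZ, RUNX1, LEF1, KLF5 and KLF6 had p-values above 0.05 on all 3 days, with changes between -0.50 and 1.01.

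**Figure D5:**
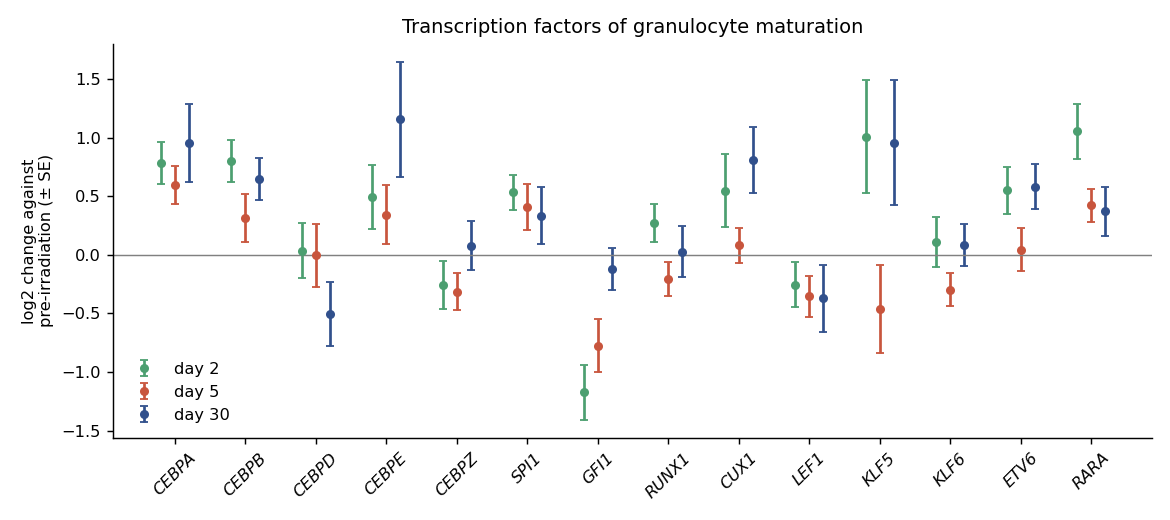
Log2 change against pre-irradiation of 14 transcription factors of granulocyte maturation on day 2, day 5 and day 30, as the fitted mean of 5 pairs with its SE. CEBPA lies above 0 on all 3 days (0.60 to 0.95), while GFI1 lies at -1.17 on day 2, -0.78 on day 5 and -0.12 on day 30.

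Receptors, binding partners and inhibitors of the granule proteins numbered 15, of which 12 were tested, with medians of 0.81, 0.49 and 0.43. TIMP1, the tissue inhibitor that binds MMP9, was 1.12 ± 0.17 higher on day 2 in all 5 pairs (adjusted p = 0.131), where MMP9 itself was higher in 3 of 5. TIMP2 was 0.88 ± 0.20 higher on day 30 (adjusted p = 0.138). TREM1, a receptor that PGLYRP1 binds, was higher by 1.10 ± 0.36, 0.75 ± 0.21 and 0.81 ± 0.33 on the 3 days. FPR2, the receptor of LL-37, was 1.65 ± 0.65 higher on day 2, in 3 of 5 pairs. In this list, 4 genes were higher at an unadjusted p-value under 0.05 on day 2, 4 on day 5 and 5 on day 30. A single gene was lower on day 30, the protease inhibitor A2M (-0.46 ± 0.16).

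Lists of other genes of granulocytes and of other blood cells are given by their medians on days 2, 5 and 30. Some lists share genes, among them CSF3R, CXCR2, FPR2, CD14, CEACAM6 and AZU1, so that the medians of the lists are not independent. The 8 receptors of cytokines and chemokines of granulocytes had medians of 0.65, 0.34 and 0.48. The 7 tested membrane genes of secretory vesicles had medians of 0.58, 0.39 and 0.47, with CD93 1.10 ± 0.28 higher on day 2 (adjusted p = 0.192). Monocyte markers had medians of 0.63, 0.41 and 0.73 over 7 genes, with CD163 0.97 ± 0.24 and CSF1R 0.73 ± 0.19 higher on day 30. Markers of T and NK cells held the one called gene of the lists against pre-irradiation, KLRB1, which fell by 1.67 on the log2 scale on day 2 (SE 0.21, adjusted p = 0.0965) and rose by 2.29 from day 2 to day 30 (adjusted p = 0.0940). GNLY, NKG7 and CD8A were at -1.34 ± 0.22, -1.32 ± 0.29 and -0.86 ± 0.17 on day 2. The 5 tested B cell markers had medians of -0.54, -0.49 and -0.54. Platelet genes had medians of 1.47, 0.46 and -0.37, and erythroid genes had medians of -0.19, 0.08 and -0.88. Among platelet genes, TUBB1 and PF4 were higher by 1.69 ± 0.28 and 1.47 ± 0.25 on day 2, and GP1BB and TREML1 were at -1.84 ± 0.25 and -1.95 ± 0.29 on day 30 against day 2. The part of these cells in the levels of the granule genes, which are scaled to all probes of an array, was not tested.

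Markers of granulocyte precursors and dividing cells were near background in large part. MS4A3 and TOP2A were not well above background on any array, CD34 on 1, ELANE on 2 and TYMS on 3, and 8 of the 13 were tested, with medians of 0.46, 0.45 and 0.54. RRM2, a subunit of the enzyme that makes deoxynucleotides, was well above background on 8 arrays and was 1.05 ± 0.34, 1.78 ± 0.41 and 2.19 ± 0.28 higher on days 2, 5 and 30, with an adjusted p of 0.120 on day 30 and all 5 pairs higher. On day 5, 6 of the 8 tested genes had a mean above pre-irradiation. The others, MKI67 and CCNB1, were at -0.19 ± 0.24 and -0.11 ± 0.16, and both were well above background on all 20 arrays. CDK1, a kinase of the cell cycle, was 0.64 ± 0.14 higher on day 30 than on day 2 (adjusted p = 0.300) in all 5 pairs. Of the 8 genes, 5 had a higher mean on day 30 than on day 2 and 3 a lower one, with AZU1 at -0.80 ± 0.26. RNASE2, an eosinophil ribonuclease, was the one gene of the eosinophil and basophil markers under 0.005, at 1.11 ± 0.25 on day 5 (adjusted p = 0.289), and it was well above background on 7 of the 20 arrays, so that this value rests on dim spots in large part.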

How the data were processed

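The values are gene expression levels of whole blood RNA on 20 one-color arrays. The authors deposited, per array, the Feature Extraction output (version 12.0.2.2 per the file headers, 10.7 in the submitters' processing notes), whose processed signal is a fluorescence intensity that is background subtracted, and spatially detrended, without normalization across arrays. A table of log2 values of 5884 probes, with 7 of the 9 genes, was also deposited. On every array at least 96.9% of these match the log2 processed signal, up to a constant, within 0.001. Blood counts were not analysed here.

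Control spots and spots marked as outliers were left out, spots of a probe were averaged on the log2 scale, and each array was set relative to its 75th percentile. Probes well above background on at least 5 arrays, with at least 4 complete pairs, were tested (19961). Each comparison used limma 3.58.1 (R 4.3.3) on its own arrays, blocked by replicate number, with Benjamini-Hochberg adjustment over all tested probes. The pairing comes from the methods, which state that comparisons were paired by animal. Deviations from the group mean correlated above 0.1 in 25 of 30 array pairs of the same number. The p-values measure the spread between these pairs. The fit was tested on simulated data for day 2 against pre-irradiation, where it called 25 of 50 probes changed by a log2 of 1, 45 of 50 changed by 2 and 14 of 19754 unchanged probes. There the changed probes were picked at random and errors were drawn independently for each probe. These shares therefore do not give the chance of a call for the 8 genes. Their changes on day 2 had an SD between pairs of 0.78 (CEACAM8) to 2.27 (LCN2).

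A gene with several probes was represented by the one well above background on most arrays, ties going to the higher mean. All 9 members are named. Of the 14 other lists, genes with an unadjusted p-value under 0.005 in any of the 6 comparisons are named, at most 4 per list, with all tested transcription factors and the 10 probes most like the members. Further genes were added by name after their values were seen: BPI, TREM1, FPR2, A2M, GCA, CLC, EPX, CCR3, IL5RA, MKI67, CCNB1 and AZU1. The markers given only by how many arrays detected them were also added then. The members and lists were chosen with earlier results of these data known. Probe sequences and hg19 positions come from the array files. In the rhesus gene table used here 8 of the 9 symbols occur, and CEACAM8 does not. No rhesus sequence was compared. Precision is limited by the number of arrays. Other settings tried were scaling by the median or by quantiles, normexp (offset 50) for the background, dropping the filter or requiring every array to be well above background, keeping outlier spots, taking the deposited log2 values, fitting without the block, with the slide in its place or on all arrays at once, a prior variance that follows intensity, and leaving out each replicate. Figures were drawn with Python 3.11.15 and matplotlib 3.10.9.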

Additional observations from a re-analysis of the deposited data

Results flagged for a closer look

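Levels and changes of the 8 tested genes were examined for a value far from the other 4 of its group of 5. Of 80 such groups 5 held one, and chance alone sets apart about 1 in 20. LCN2 on day 30 was at 3.36 in replicate 1, and at -2.21 to -1.42 in the others. The change of CEACAM8 on day 30 was 3.21 in replicate 1, and 0.44 to 1.24 in the others. In replicate 1 CEACAM8 was not well above background before irradiation. LTF before irradiation was at -0.79 in replicate 5, and at -2.96 to -2.57 in the others. OLFM4 before irradiation was at -2.88 in replicate 2, and at -4.15 to -3.97 in the others, of which only replicate 4 was well above background. CHI3L1 before irradiation was at -5.03 in replicate 4, where it was not well above background, and at -2.52 to -1.69 in the others.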

How the results depend on the processing

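The 8 genes kept a mean change above 0 against pre-irradiation, except for LTF, OLFM4, CHI3L1 and MMP9 where given here, but which of them passed an unadjusted p-value of 0.05 depended on the setting. When probes had to be well above background on all 20 arrays, so that 4 of the genes were tested, 1, 2 and 2 genes passed on days 2, 5 and 30, against 3, 5 and 5 of 8, and with 1 fit of all 20 arrays 3 passed on day 5 and 3 on day 30. Without the replicate block 0, 1 and 3 passed on days 2, 5 and 30, and 0 between days 5 and 2, and with the slide as a block in place of the pairing 1 passed on day 2 and 1 on day 5. With normexp, 2 genes were called on day 30 (CAMP at 0.85 and CEACAM8 at 0.71), where 899 of all probes were called (against 0, and 695 when every array had to be well above background, 451 with an intensity trend, 334 with the deposited values and 121 with all arrays in 1 fit), the median of the genes on day 5 was 0.44, and the median between days 5 and 2 was 0.025 with 0 genes under 0.05. Without the filter that median was 0.027, against -0.11. Between days 5 and 2, 0 genes passed under that stricter filter. Between days 30 and 2, 1 gene passed under it, with the deposited values and with an intensity trend, and between days 30 and 5, 1 gene passed with each of these and with median scaling and normexp. The share of all probes under 0.05 is not given for each of these settings. The counts of genes under 0.05 can therefore move with all probes and are not results about the 8 genes alone. The causes of these differences were not tested.

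Changes of single genes turned sign as follows. CHI3L1 on day 2 was at -0.038 with the deposited values. MMP9 on day 5 was at -0.016 with quantile normalization and -0.030 with median scaling. Between days 5 and 2, CEACAM8 was at -0.044, -0.12, -0.27 and -0.036 with quantile normalization, median scaling, normexp and the deposited values, and normexp gave 0.30 for CAMP, -0.10 for OLFM4 and 0.068 for PGLYRP1. Between days 30 and 2, CAMP was at 0.0048, 0.031 and 0.45 with quantile normalization, median scaling and normexp, and normexp gave 0.17 for MMP9 and -0.12 for CHI3L1. Against the percentile scaling, normexp moved the median of all probes to 0.12 on day 2 and 0.11 on day 30, relative to which the median of the genes was 0.30 and 0.56 higher. The deposited values moved it to 0.12 on both days, with the genes 0.66 and 0.84 higher.

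Leaving out each replicate in turn gave 0 to 1 called genes on day 2 (1 without replicate 2, where 588 of 19961 probes were called, against 0 to 3 without another replicate). Genes under 0.05 numbered 1 to 4 on day 2 (1 without replicate 1, 3 or 4), 2 to 6 on day 30 (2 without replicate 1 and 3 without replicate 2), 1 to 2 between days 5 and 2, 0 to 3 between days 30 and 2 (3 without replicate 3) and 0 to 4 between days 30 and 5 (4 without replicate 5). For these counts too, the share of all probes under 0.05 with a replicate left out is not given. The median of the genes ran from 0.29 to 1.13 on day 2, 0.77 to 1.09 on day 5 and 0.77 to 1.37 on day 30, from -0.38 to 0.32 between days 5 and 2 (highest without replicate 3), from -0.014 to 0.70 between days 30 and 2, and from -0.0034 to 0.83 between days 30 and 5, both lowest without replicate 1. On day 2 the changes ran from -0.17 to 0.42 for LTF, from -0.18 to 0.32 for OLFM4 and from -0.12 to 0.51 for CHI3L1, and on day 30 from -0.13 to 0.79 for MMP9. Between days 5 and 2 they ran from -0.30 to 0.25 for CEACAM8, -0.94 to 0.31 for LCN2, -0.46 to 0.066 for CAMP and -0.78 to 0.34 for PGLYRP1. Between days 30 and 2 they ran from -0.11 to 1.65 for PGLYRP1, -0.18 to 0.74 for CHI3L1, -0.22 to 0.44 for CAMP and -0.72 to 0.50 for MMP9. Between days 30 and 5 they ran from -0.027 to 1.13 for LTF, -0.16 to 0.65 for MMP9 and -0.047 to 1.004 for OLFM4.

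Spots were dim relative to their surroundings, with a median signal over background of 1.68 to 2.46 per array. Values on arrays where a gene was not well above background are measured signals that entered the means, fits and correlations unchanged. They do not give a reliable level. This holds for LCN2, OLFM4, CHI3L1, CEACAM8, RNASE3, RNASE2, RRM2, KLF5, EPX, IL5RA, BPI, CEACAM6 and FPR2.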
